A study of Mus musculus with 16 samples.

Results

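Acetylation of lysine 27 of histone H3 (H3K27Ac), a mark of active promoters and enhancers, was examined at 3 loci that hold 8 genes of the hepatic acute phase response: the serum amyloid A cluster (Saa1, Saa2, Saa3 and Saa4), lipocalin 2 (Lcn2) and the fibrinogen cluster (Fgg, Fga and Fgb). The loci were taken as windows in mm9 coordinates, chr7:53950000-54025000 for Saa, chr2:32225000-32260000 for Lcn2 and chr3:82795000-82870000 for fibrinogen. The rule that sets them uses gene positions and no measured value, although the loci were chosen with earlier results of these data known. Peaks of all animals that overlapped or adjoined were merged, and 9 of the 56941 merged regions fell in these windows, 5 at Saa, 3 at Lcn2 and 1 at fibrinogen. The windows held 179 peaks of the 15 animals, of which 86 lay in the Saa window, 41 in the Lcn2 window and 52 in the fibrinogen window.

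The acute phase response is the change in the plasma proteins secreted by hepatocytes during inflammation. It is driven mainly by interleukin 6, acting through STAT3, and by interleukin 1 and tumour necrosis factor, acting through NF-kB and C/EBP factors. SAA1 and SAA2 are the acute phase serum amyloid A proteins that travel on high-density lipoprotein, SAA4 is the constitutive member of the family, and SAA3 is also made outside the liver, in macrophages and adipose tissue among others. LCN2 binds bacterial siderophores and withholds iron, and FGA, FGB and FGG are the chains that assemble into fibrinogen, the precursor of the fibrin clot, which hepatocytes also secrete at rest.

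The study compared livers of WT mice (FVB.129P2 in the sample records, FVB/NJ in the methods), inflamed livers of *Mdr2-/-* mice (FVB.129P2-Abcb4tm1Bor/J) and HCC nodules that arose in *Mdr2-/-* livers, with 5 animals in each group and 1 library per animal. *Mdr2* (Abcb4) encodes the transporter that moves phosphatidylcholine into bile, and its absence leaves bile acids free to injure the biliary tract and the liver. The knockout is present in every cell and not in hepatocytes alone. WT and nodule-bearing mice were 14 to 19 months old and mice with inflamed livers 7 to 8 months old in the sample records, while the study's text gives somewhat different ages for the mutant mice and calls the WT mice age matched. By the records, for inflamed livers age and genotype or tissue cannot be told apart. All 15 animals, the WT ones included, had received clodronate liposomes 48 h before sacrifice to deplete macrophages, at 50 μg per g of body weight in the sample records, while the methods give a load of 5 μg; both sexes were used. Chromatin of 350 mg of tissue was precipitated with 5 μg of antibody and read as 36 bp single reads. In whole tissue, fewer cells of a type and less acetylation per cell cannot be told apart. The defining markers of hepatocytes and of other liver cells were not examined, because they cannot be placed on these coordinates without an annotation of the build.

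The data are lists of peaks with a score, 1 list per animal, without read counts, so that sequencing depth is unknown. On chromosomes 1 to 19 and X a WT list held 28292 ± 1435 peaks (SD, n = 5), a list from inflamed tissue 38368 ± 1801 and a nodule list 33514 ± 7060, with peaks over 128 ± 15.6, 147 ± 9.40 and 144 ± 32.8 Mb. A list with more peaks offers more chance of a peak at any locus, and counts of calls below are therefore set beside the same share over the genome.

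Of these lists, 3 stood apart from the others of their group. WT animal 130748 had the smallest covered length among WT livers (109 Mb) and HCC animal 124711 the smallest of all (92.5 Mb). Both had the largest shares of peaks at a score of 3100, at which many peaks of every list are tied (23.5% and 24.5%). The next smallest WT list, of 129297, covered 117 Mb, and 130748 with 28803 peaks lay within the range of WT lists. HCC animal 123390 had 115 peaks wider than 40 kb, against 5 to 48 in the other 14 lists, and was the only animal without a peak in 735 merged regions, a number exceeded by HCC 124711 with 829. Results that rest on these animals are given with and without them. The paper also states that outlier samples were removed from its principal component analysis of these H3K27Ac profiles. It does not name them there, so that whether they are among the 3 lists above is unknown. All animals were kept in the main tests here.

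According to the order of coding genes in the RefSeq table, the Saa genes lie between Saal1 and Hps5 in the order Saa3, Saa4, Saa1, Saa2. Lcn2 lies between 1110008P14Rik and Ptges2, and the fibrinogen genes lie between Lrat and Plrg1 in the order Fgg, Fga, Fgb. That table is of GRCm38 and the peaks are of mm9, so that no peak was assigned to a single gene, and each locus was measured as a whole. All 8 genes had a promoter entry in RefSeq. The 250 bases before the start site are printed for Saa1, Saa2, Saa3 and Saa4, because only at Saa did a difference in covered length pass the test with all animals. They are also printed for Lcn2 and Fgb, as genes of the windows where no difference passed it with all animals. Capitals mark matches to TTNNGNAA, the letters of a C/EBP type site, and to TTCNNNGAA, the letters of a STAT type site, on either strand. Coordinates are of GRCm38.p6 and sequences are written 5′ to 3′ on the strand of the gene.
Saa1, chr7:46742981-46743230, minus strand: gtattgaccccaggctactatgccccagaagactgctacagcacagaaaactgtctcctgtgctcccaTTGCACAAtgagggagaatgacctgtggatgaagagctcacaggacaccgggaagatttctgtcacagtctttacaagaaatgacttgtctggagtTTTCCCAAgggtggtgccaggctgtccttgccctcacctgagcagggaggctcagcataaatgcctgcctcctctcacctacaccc
Saa2, chr7:46751583-46751832, plus strand: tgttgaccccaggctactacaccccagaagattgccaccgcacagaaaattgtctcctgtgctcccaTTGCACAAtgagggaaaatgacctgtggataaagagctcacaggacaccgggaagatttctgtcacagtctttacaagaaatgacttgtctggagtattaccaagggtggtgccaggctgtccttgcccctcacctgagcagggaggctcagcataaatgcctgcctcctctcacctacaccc
Saa3, chr7:46715677-46715926, minus strand: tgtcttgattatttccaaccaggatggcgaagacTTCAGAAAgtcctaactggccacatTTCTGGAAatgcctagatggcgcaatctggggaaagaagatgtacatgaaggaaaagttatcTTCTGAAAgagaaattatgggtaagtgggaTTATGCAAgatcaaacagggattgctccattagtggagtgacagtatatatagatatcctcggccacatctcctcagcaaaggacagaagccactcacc
Saa4, chr7:46732604-46732853, minus strand: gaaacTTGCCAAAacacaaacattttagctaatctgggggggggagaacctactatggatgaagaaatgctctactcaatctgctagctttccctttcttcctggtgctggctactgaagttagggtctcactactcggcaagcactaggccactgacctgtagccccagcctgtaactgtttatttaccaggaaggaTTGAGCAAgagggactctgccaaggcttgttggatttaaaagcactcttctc
Lcn2, chr2:32387740-32387989, minus strand: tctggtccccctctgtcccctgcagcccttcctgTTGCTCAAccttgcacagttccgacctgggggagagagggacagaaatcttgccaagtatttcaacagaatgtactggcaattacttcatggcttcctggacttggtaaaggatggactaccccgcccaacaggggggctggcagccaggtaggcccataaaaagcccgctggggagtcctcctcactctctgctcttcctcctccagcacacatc
Fgb, chr3:83049864-83050113, minus strand: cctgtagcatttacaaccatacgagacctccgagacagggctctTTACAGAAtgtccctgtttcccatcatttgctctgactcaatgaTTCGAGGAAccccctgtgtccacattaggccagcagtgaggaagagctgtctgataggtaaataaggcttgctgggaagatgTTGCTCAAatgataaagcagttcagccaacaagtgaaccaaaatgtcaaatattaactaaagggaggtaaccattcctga

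The letters TTNNGNAA were found before 7 of the 8 genes, all but Fgg, and before 36.8% of all 32851 promoters of the table. Saa3 held 4 such matches, Saa1 and Saa4 2 each and Saa2 1, and the match TTGCACAA stood at almost the same place in Saa1 and Saa2, at positions -182 and -183, counted with -1 as the base before the start site. TTCNNNGAA was found before Fga and Fgb and before 7.02% of all promoters, and no match to it overlapped a match to TTNNGNAA in these genes. The NF-kB consensus of 10 letters (3.90% of all promoters), TATAAA (12.4%) and an HNF1 type site of 13 letters (0.00913%) were searched on both strands and were not found before any of the 8. A match to these letters describes the sequence and is not a binding site shown in these samples.

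The promoters of Saa1 and Saa2 were identical at 94.8% of aligned positions, the indel included, and 23.7% of the 36-base words of the Saa1 promoter, the length of a read, recurred in that of Saa2. Reads from such words have more than 1 place in the genome, and how they were treated is not given in the sources used here, so that acetylation of Saa1 and Saa2 may be shared or missed between them. Saa1 shared no word of that length with Saa3 or Saa4, to which it was identical at 52.2% and 49.5% of aligned positions.

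The first comparison asked whether acetylation at the Saa cluster differed between inflamed and WT livers. The length under peaks in the Saa window was lower in inflamed livers, at 14948 ± 946 bp against 27133 ± 6642 bp in WT livers (SD, n = 5 each), a difference of -12185 bp (SE 3000), with WT 1.82-fold higher. In WT livers it was 38017 bp in animal 134501, 27476 bp in 129296, 24603 bp in 130747, 20170 bp in 129297 and 25397 bp in 130748. In inflamed livers it was 14553 bp in animal 148997, 14910 bp in 148998, 13621 bp in 149198, 15592 bp in 149199 and 16064 bp in 148990. Every WT liver lay above every inflamed liver, and the inflamed livers were close to each other while the WT livers spread widely.

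The difference passed the test (exact two-sided permutation test, p = 0.00794, which is the least that groups of 5 can give; adjusted p = 0.0404 by Benjamini-Hochberg over all windows of its width). In this comparison 19.7% of 18692 windows of 75 kb were called, but most of these were higher in inflamed livers, and the groups separated with inflamed livers lower in 3.81%. The difference at Saa was as low in 0.567% of the other windows, whose median difference was 288 bp in the other direction. That share is in bp over windows of any covered length, and windows with little of it could not differ as much. Windows of similar covered length in WT livers were not compared. The call was lost when any single inflamed animal was left out, with the difference then between -11853 and -12464 bp and adjusted p between 0.0677 and 0.0821, as the exact permutation test of 4 animals against 5 then gave p = 0.0159. The call was also lost with lists of equal length (-13943 bp, adjusted p = 0.0503) and with the best 50% of each list (-8440 bp, adjusted p = 0.163), both by exact permutation tests. Without WT animal 130748 the difference was -12619 bp (exact permutation test with n = 4 against 5, adjusted p = 0.0352).

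**Figure D1:**
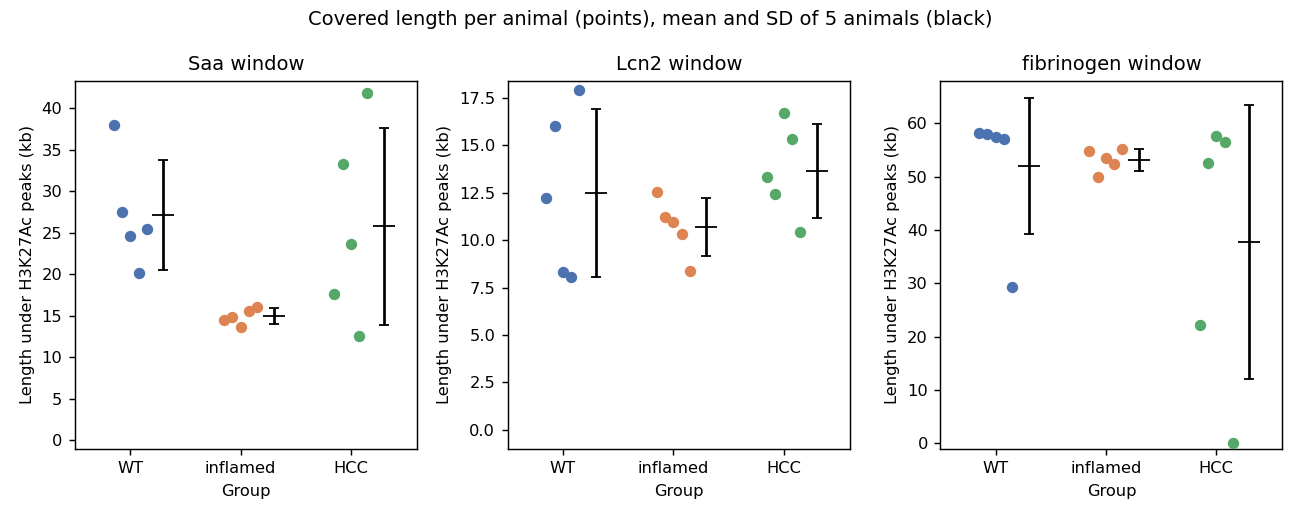
Length under H3K27Ac peaks in the Saa, Lcn2 and fibrinogen windows in kb (vertical axis) for each animal (points) by group (horizontal axis), with the mean and SD of 5 animals in black. At Saa all inflamed livers lie below all WT livers, and at fibrinogen WT 130748, HCC 124711 and HCC 123390 lie below all other samples.

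Over the genome inflamed livers had more peaks than WT livers, the opposite of the covered length at Saa. Of each Mb under peaks in an animal, the Saa window held 172 to 296 bp in WT livers and 85.2 to 113 bp in inflamed livers. Ranked among all windows of its width within each animal, it stood at percentiles 91.8 to 98.3 in WT livers and 78.1 to 85.4 in inflamed livers. The number of peaks did not pass the test, at 5.8 ± 0.84 in WT and 5.4 ± 0.55 in inflamed livers, a difference of -0.4 (exact permutation test, n = 5 each, p = 0.683). The longest peak of the window was 4834 to 13381 bp long in WT livers and 2873 to 3636 bp in inflamed livers. Other peaks of the window overlapped in width between the groups. In its first merged region they were 1892 to 2475 bp wide in WT livers and 2011 to 2263 bp in inflamed livers. Wide peaks were also fewer over whole inflamed lists, with 5 to 9 peaks over 40 kb against 14 to 48 in WT lists, and the median peak was 2791 to 3197 bp wide against 2890 to 3809 bp.

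**Figure D2:**
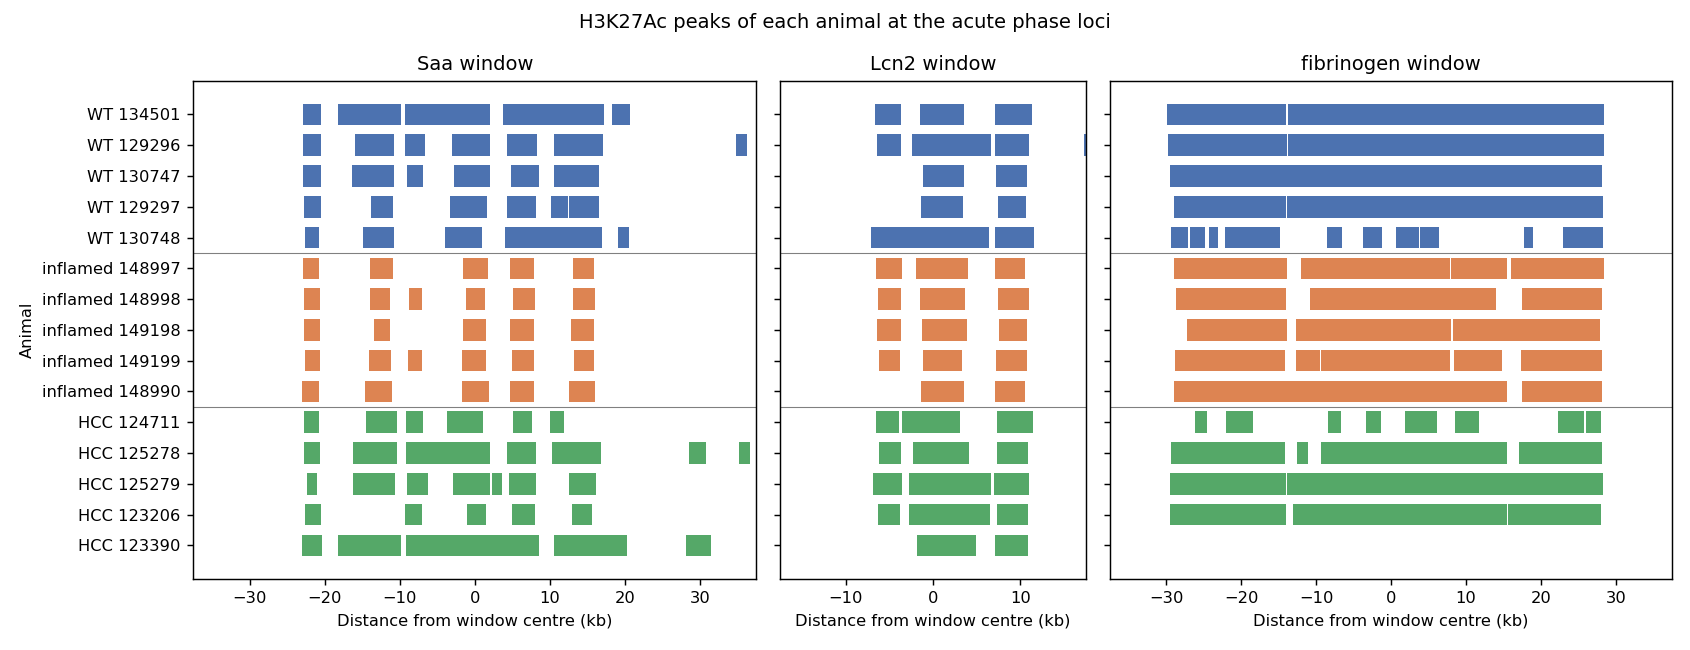
H3K27Ac peaks (bars) of the 15 animals (rows) in the Saa, Lcn2 and fibrinogen windows against the distance from the window centre in kb. In the Saa window inflamed livers show 5 or 6 peaks and WT livers 5 to 7, and the longest peak is longer in every WT liver than in any inflamed liver. In the fibrinogen window HCC 123390 has no peak.

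To locate the difference, the Saa window was divided into 7 stretches of at least 500 bp that lay under peaks in at least 8 of the 15 animals, numbered in genomic order. These limits were set after the values were seen, and the stretches are described without a test. The sixth, chr7:53998070-53999348, was wholly under peaks in all 5 WT livers, in no part under a peak in any inflamed liver, and wholly covered in 3 of 5 HCC nodules. The fourth, chr7:53984576-53989200, was covered over 95.6% ± 6.95 of its length in WT, 66.7% ± 6.82 in inflamed and 87.9% ± 20.2 in HCC samples (SD, n = 5 each). The second was covered over 75.4% to 100% in WT and 58.3% to 93.7% in inflamed livers, which overlapped there, and over 78.8% ± 44.1 in HCC nodules. That nodule mean rested on HCC 123206, which had no peak there, while the other nodules were covered over 94.0% to 100%. For the fifth the means were 99.3% ± 1.48 in WT, 87.0% ± 4.00 in inflamed and 91.1% ± 13.3 in HCC samples, and for the seventh 100% in every WT liver, 82.4% ± 9.23 in inflamed livers and 75.0% ± 43.3 in HCC nodules. The nodule mean of the seventh rested on HCC 124711, which had no peak there, and without it the mean was 93.8% ± 12.5 (SD, n = 4), above that of inflamed livers. Without 124711 the nodule means of the fourth and the fifth were 88.4% ± 23.2 and 96.3% ± 7.43, and the sixth was covered in 2 of the 4 other nodules.

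The first stretch, chr7:53964738-53966840, differed from these. It lay under a peak in all 15 animals, and 90.0% to 100% of it was covered in the WT and inflamed livers. The score percentile of its peak within the animal's list, 48.4 ± 6.82 in inflamed and 25.9 ± 22.1 in WT livers, did not pass the test (exact permutation test, n = 5 each, p = 0.0714, adjusted p = 0.218 over all merged regions). Among WT livers it was at percentile 60.7 in animal 130748 and at 30.3 or lower in the other 4. Without 130748 the WT mean was 17.2 ± 12.2 and all inflamed livers lay above the WT livers. The difference was then called (exact permutation test with n = 5 against 4, p = 0.00794, adjusted p = 0.0488), as were 16.2% of all regions. Without 130748 inflamed livers lay above all WT livers in 20.6% of regions. With all animals no region of the genome was called on this measure (0.00%). Percentiles depend on the length of a list, and inflamed lists held more peaks than WT lists. Score percentiles were not tested with lists of equal length, so that the part of this difference due to list length is unknown. The third stretch, chr7:53978533-53980496, had a peak in all 5 HCC nodules, in 3 WT livers and in 2 inflamed livers.

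Counted base by base, 3702 bp of the Saa window lay under peaks in all 5 WT livers and in none of the inflamed livers, in 5 segments, the longest of which were chr7:53998033-53999880 and chr7:53984712-53985796. They made up 8.00% of the 46289 bp of the window under a peak of any animal, against 0.728% of such bases over the genome. No base of the window had the opposite pattern, all inflamed and no WT livers, which held for 3.42% over the genome. At Lcn2 and fibrinogen neither pattern occurred. Between nodules and inflamed livers, 181 bp of the Saa window lay under peaks in all HCC and no inflamed samples (0.190% over the genome) and 0 bp in the reverse pattern (0.930%), and between nodules and WT livers 0 bp had either pattern (0.204% for all HCC and no WT, 0.177% for all WT and no HCC) in any of the 3 windows. Bases under peaks in all 15 animals amounted to 5864 bp in 3 segments at Saa, 12.7% of the bases under any peak, and to 15.4% over the genome.

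**Figure D3:**
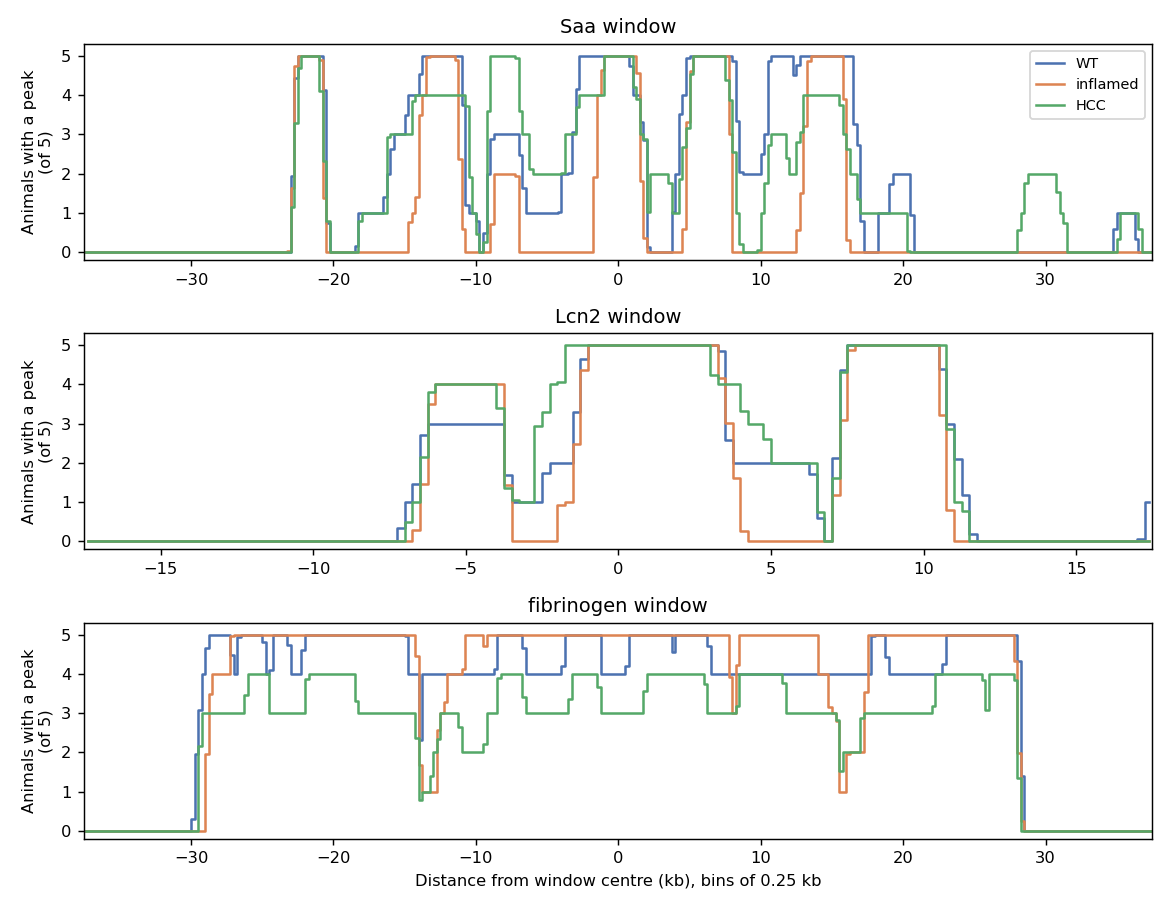
Mean number of animals (of 5) with an H3K27Ac peak in bins of 0.25 kb (vertical axis) against the distance from the window centre in kb, for WT (blue), inflamed (orange) and HCC (green) samples. In the Saa window many flanks of the peaks are covered in more WT than inflamed livers, but at 1.125 kb 4 WT and 5 inflamed livers have a peak. The stretch at about 10 to 12 kb is covered in WT livers and not in inflamed livers.

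HCC nodules were then compared with inflamed livers, from which they differ in age and in tissue, and with WT livers. The length under peaks at Saa was 17580 bp in HCC animal 124711, 33253 bp in 125278, 23588 bp in 125279, 12595 bp in 123206 and 41793 bp in 123390. It thus reached from below the lowest inflamed liver to above the highest WT liver. The mean of 25762 ± 11813 bp (SD, n = 5) exceeded that of inflamed livers by 10814 bp (SE 5300), a difference that did not pass the test (exact permutation test, p = 0.0794, adjusted p = 0.405). Without HCC animal 123390 it was 6806 bp. Against WT livers the difference was -1371 bp (SE 6061; exact permutation test, p = 0.833, adjusted p = 1). Its sign turned without HCC 124711 (675 bp), without HCC 123206 (1921 bp) and without WT 134501 (1350 bp), and it was -5379 bp without HCC 123390. For neither comparison with nodules could any window of the genome be called (0.00%), as the smallest adjusted p over all windows was above the threshold in both. The groups separated in either direction in 6.61% of 18692 windows between nodules and inflamed livers and 2.50% between nodules and WT livers (unadjusted exact p = 0.00794 in each), and the Saa window was not among them.

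The third merged region of the window, chr7:53978168-54008145, held most of this length and was wider than 99.0% of all merged regions. Peaks spanned 19278 ± 4677 bp of it in WT samples, 9888 ± 574 bp in inflamed ones and 17489 ± 7105 bp in nodules (SD, n = 5 each). WT and inflamed livers did not overlap there, with inflamed livers lower as in 3.08% of the 56941 regions (exact permutation test, p = 0.00794), but the adjusted p of 0.0634 was the smallest that any region reached and no region of the genome was called (0.00%). HCC exceeded inflamed samples by 7601 bp (exact permutation test, n = 5 each, p = 0.0159, adjusted p = 0.272). The second merged region, chr7:53969210-53977697, had a peak in every animal but HCC 123206, and its peak stood at score percentile 48.3 ± 14.7 in WT and 19.7 ± 9.99 in inflamed livers (exact permutation test, n = 5 each, p = 0.0159, adjusted p = 0.0911). Over the genome 30.8% of regions passed the unadjusted threshold on this measure, and no region was called (0.00%). The best score of the third region stood at percentile 85.8 ± 12.1 in WT and 81.9 ± 3.29 in inflamed livers (exact permutation test, n = 5 each, p = 0.627, adjusted p = 1), and these values rested on WT 130748. Without it WT livers were at 91.2 ± 0.89 and above all inflamed livers, as in 3.66% of regions, and the difference was not called (exact permutation test with n = 5 against 4, p = 0.0159, adjusted p = 0.0661).

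The fourth merged region, chr7:54015608-54018937, was found in HCC animals 125278 and 123390 and in none of the other 13. The fifth, chr7:54022354-54024144, had a peak in WT animal 129296 and HCC animal 125278, at score percentiles 1.90 and 4.36 of their lists, near the weakest peaks. Of the 9 merged regions in the 3 windows, 5 had a peak in all 15 animals, as had 21.3% of all regions, and 0 had a peak in all animals of one group and none of another. Over the genome the latter held for 4.82% (all inflamed, no WT), 0.399% (all WT, no inflamed), 0.105% (all HCC, no inflamed), 1.28% (all inflamed, no HCC), 0.220% (all HCC, no WT) and 0.146% (all WT, no HCC) of regions. The exact permutation test on covered length called 0 of the 9 in any comparison at an adjusted p under 0.05. No region of the genome was called in any comparison (0.00%), so that this count says nothing about the 9. At an unadjusted p under 0.05 the test gave 2 between inflamed and WT livers. It gave 2 between nodules and inflamed livers and 0 between nodules and WT livers. Over the genome 24.5%, 12.2% and 6.97% of regions passed that unadjusted threshold, and counts of 2 among 9 regions are not read as a result.

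**Figure D4:**
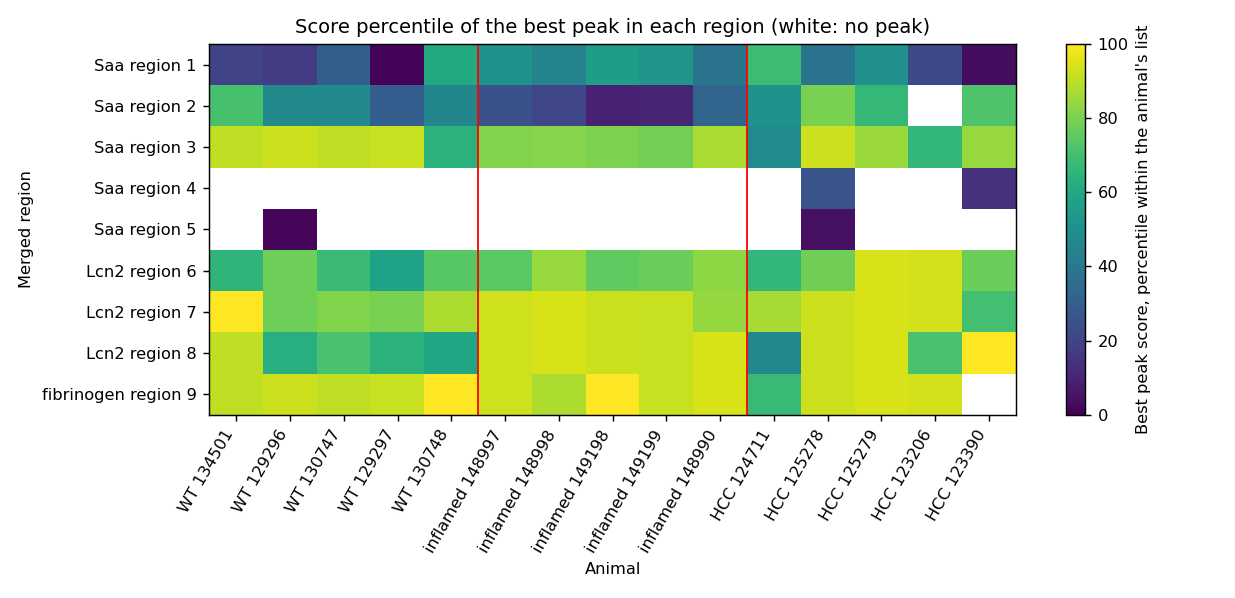
Percentile, within the animal's own list, of the best peak score (colour, 0 to 100) for the 9 merged regions (rows) in the 15 animals (columns, groups parted by red lines), with white where there was no peak. Saa regions 4 and 5 have a peak in only 2 animals each, and fibrinogen region 9 is absent only from HCC 123390.

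At Lcn2 the length under peaks did not separate the groups. In WT livers it was 12209 bp in animal 134501, 16034 bp in 129296, 8324 bp in 130747, 8053 bp in 129297 and 17906 bp in 130748. In inflamed livers it was 12521 bp in 148997, 11220 bp in 148998, 10988 bp in 149198, 10337 bp in 149199 and 8363 bp in 148990, and all of these lay inside the range of WT livers. The difference was -1819 bp (SE 2101; exact permutation test, n = 5 each, p = 0.413, adjusted p = 0.715). It was -469 bp without WT 130748, -937 bp without WT 129296, -2865 bp without WT 130747 and -2932 bp without WT 129297, so that its size rests on single WT livers. In this comparison 17.4% of 31434 windows of 35 kb were called.

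In HCC nodules the Lcn2 window was covered over 13322 bp in animal 124711, 12441 bp in 125278, 16729 bp in 125279, 15355 bp in 123206 and 10421 bp in 123390. The mean was 2968 bp (SE 1297) above that of inflamed livers (exact permutation test, n = 5 each, p = 0.0556, adjusted p = 0.345) and 1148 bp (SE 2274) above that of WT livers (exact permutation test, p = 0.627, adjusted p = 1). The difference from WT livers ran from 35.4 bp without WT 129297 to 2499 bp without WT 130748, and was 103 bp without WT 130747, 2031 bp without WT 129296, 380 bp without HCC 125279, 723 bp without HCC 123206 and 1957 bp without HCC 123390. The nodules overlapped both other groups, and neither difference passed the test. No window of 35 kb was called in either comparison (0.00%). The smallest adjusted p that any of them reached in the exact permutation test was 0.132 against inflamed and 0.347 against WT livers. Among windows of this width 5.99% separated nodules from inflamed livers and 2.28% separated them from WT livers.

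The same peaks recurred at Lcn2 in nearly all samples. A stretch of 4159 bp, chr2:32241402-32245560, and another of 2991 bp, chr2:32250030-32253020, lay under peaks in all 15 animals, and together they made up 38.6% of the 18527 bp of the window under any peak, against 15.4% over the genome. Both are in merged regions present in every animal, chr2:32235412-32249149 and chr2:32249524-32254045. A further peak to the left of these, with 2599 bp under peaks in at least 8 animals, was found in 3 WT, 4 inflamed and 4 HCC samples, and in WT 130748 it was joined to its neighbour in a peak of 13521 bp. The best score percentile in the former of the merged regions was 68.6 ± 7.72 in WT and 79.0 ± 4.59 in inflamed livers (exact permutation test, n = 5 each, p = 0.0397, adjusted p = 0.154), and in the latter 85.3 ± 8.86 and 91.0 ± 3.81 (p = 0.230, adjusted p = 0.508 by the same exact test).

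A further merged region, chr2:32259734-32287202, lay almost wholly to the right of the Lcn2 window and reached into it by 267 bp in WT animal 129296 alone. Its best peak stood at score percentile 92.9 ± 1.06 in inflamed and 69.7 ± 12.5 in WT livers, without overlap between the groups (exact permutation test, n = 5 each, p = 0.00794, adjusted p = 0.0566). All inflamed livers and WT 134501 were there at the tied score of 3100. WT 134501, at percentile 90.6, fell below the inflamed livers, at 91.7 to 94.1, only because ties rank differently in different lists. The other WT livers stood at percentiles 59.1 to 71.5. Separation with inflamed livers higher was seen in 12.6% of all merged regions on this measure. With all animals no region of the genome was called (0.00%), as this adjusted p was the smallest that any region reached. Without WT 130748 the groups also did not overlap and the difference was called (exact permutation test with n = 5 against 4, p = 0.00794, adjusted p = 0.0488), as for 16.2% of regions. WT 134501 was still among the WT livers, so that the lack of overlap again came from the ranks of tied scores. The call is therefore not read as a higher score in every inflamed liver than in every WT liver.

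The fibrinogen window was among the most covered of the genome. All peaks there merged into a single region of 58261 bp, chr3:82802678-82860938, and only 68 of 56941 merged regions were wider. In 12 of the 15 animals the window was at percentile 99.7 or above among windows of its width. The exceptions were WT 130748 (96.4), HCC 124711 (95.1) and HCC 123390 (18.0), the animals whose lists stood apart.

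In WT livers the length under peaks was 58079 bp in animal 134501, 57996 bp in 129296, 57439 bp in 130747, 57096 bp in 129297 and 29331 bp in 130748. In inflamed livers it was 54852 bp in 148997, 49993 bp in 148998, 53473 bp in 149198, 52429 bp in 149199 and 55105 bp in 148990. The WT livers other than 130748 lay within 983 bp of each other and above all inflamed livers, and 130748 lay far below all of them, with 10 peaks in place of 2.

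With all animals the inflamed livers exceeded the WT livers by 1182 bp (SE 5743; exact permutation test, n = 5 each, p = 1, adjusted p = 1), beside 19.7% of windows called. Without WT 130748 the sign was the opposite, with 53170 ± 2080 bp in inflamed and 57653 ± 467 bp in WT livers, a difference of -4482 bp or -7.77%. The groups then did not overlap (exact permutation test with n = 5 against 4, p = 0.00794, adjusted p = 0.0352). In that comparison 22.5% of windows were called, and in 10.5% the groups separated with inflamed livers lower. The direction of the fibrinogen difference therefore turned with 1 animal, and with all animals it also turned with the best 50% of each list (-3571 bp) and as a share of covered length (-40.6 bp per Mb).

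Compared with the 4 WT livers other than 130748, inflamed livers lacked on average 3323 bp in gaps between peaks and 1159 bp at the ends of the region, and in inflamed 149198 the ends (3186 bp) outweighed the gaps (1602 bp). These 4 WT livers each had 1 gap, of 36 to 182 bp, 13.9 kb to the left of the window centre. At that place 4 of the 5 inflamed livers had a gap of 1275 to 3260 bp, and 4 of 5 had another, of 521 to 3458 bp, about 14 to 17 kb to the right of the centre. The second gap was present in HCC animals 125278 (1544 bp) and 123206 (150 bp), lay within a wider gap of 10516 bp in 124711, and was absent from 125279, whose single gap of 99 bp lay where those of the WT livers did. The 3 covered stretches common to at least 8 animals were 15023, 28217 and 12101 bp long. Inflamed livers covered 96.7% ± 4.74, 95.8% ± 4.78 and 92.6% ± 5.75 of them (SD, n = 5), and the WT livers, 130748 included, 96.4% ± 7.82, 87.2% ± 28.7 and 90.4% ± 21.5. In 130748 the values were 82.4%, 35.9% and 51.9%, and the other 4 WT livers covered 99.6% to 100% of the first and 100% of the second and the third, above the mean of inflamed livers in each.

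In HCC nodules the fibrinogen window was covered over 22104 bp in animal 124711, in 8 peaks, 52545 bp in 125278, 57546 bp in 125279, 56452 bp in 123206 and 0 bp in 123390. The first and the last thus lay far below all inflamed livers and below all WT livers, and the other 3 were within the range of the other groups. The mean was 37729 ± 25644 bp, a difference of -15441 bp from inflamed livers (SE 11506; exact permutation test, n = 5 each, p = 0.413, adjusted p = 0.831) and of -14259 bp from WT livers (SE 12792; p = 0.190, adjusted p = 0.716, by the same exact test). Without HCC 123390 these differences were -6009 bp and -4826 bp, and without HCC 124711 -11535 bp and -10352 bp. As at Saa, no window of 75 kb was called in either comparison with all animals (0.00%).

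HCC animal 123390 had no peak in the whole fibrinogen window, where each of the other 14 animals had at least 22104 bp under peaks. Its nearest peaks were 697698 bp to the left and 773280 bp to the right. Such distances were not peculiar to it, because WT 134501 had no other peak within 656395 bp to the left and 773982 bp to the right of the window. The fibrinogen region was the second widest of the 735 merged regions that only this animal lacked, and in the same animal the Saa window was covered further than in any other sample. Why this list is empty here was not tested.

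**Figure D5:**
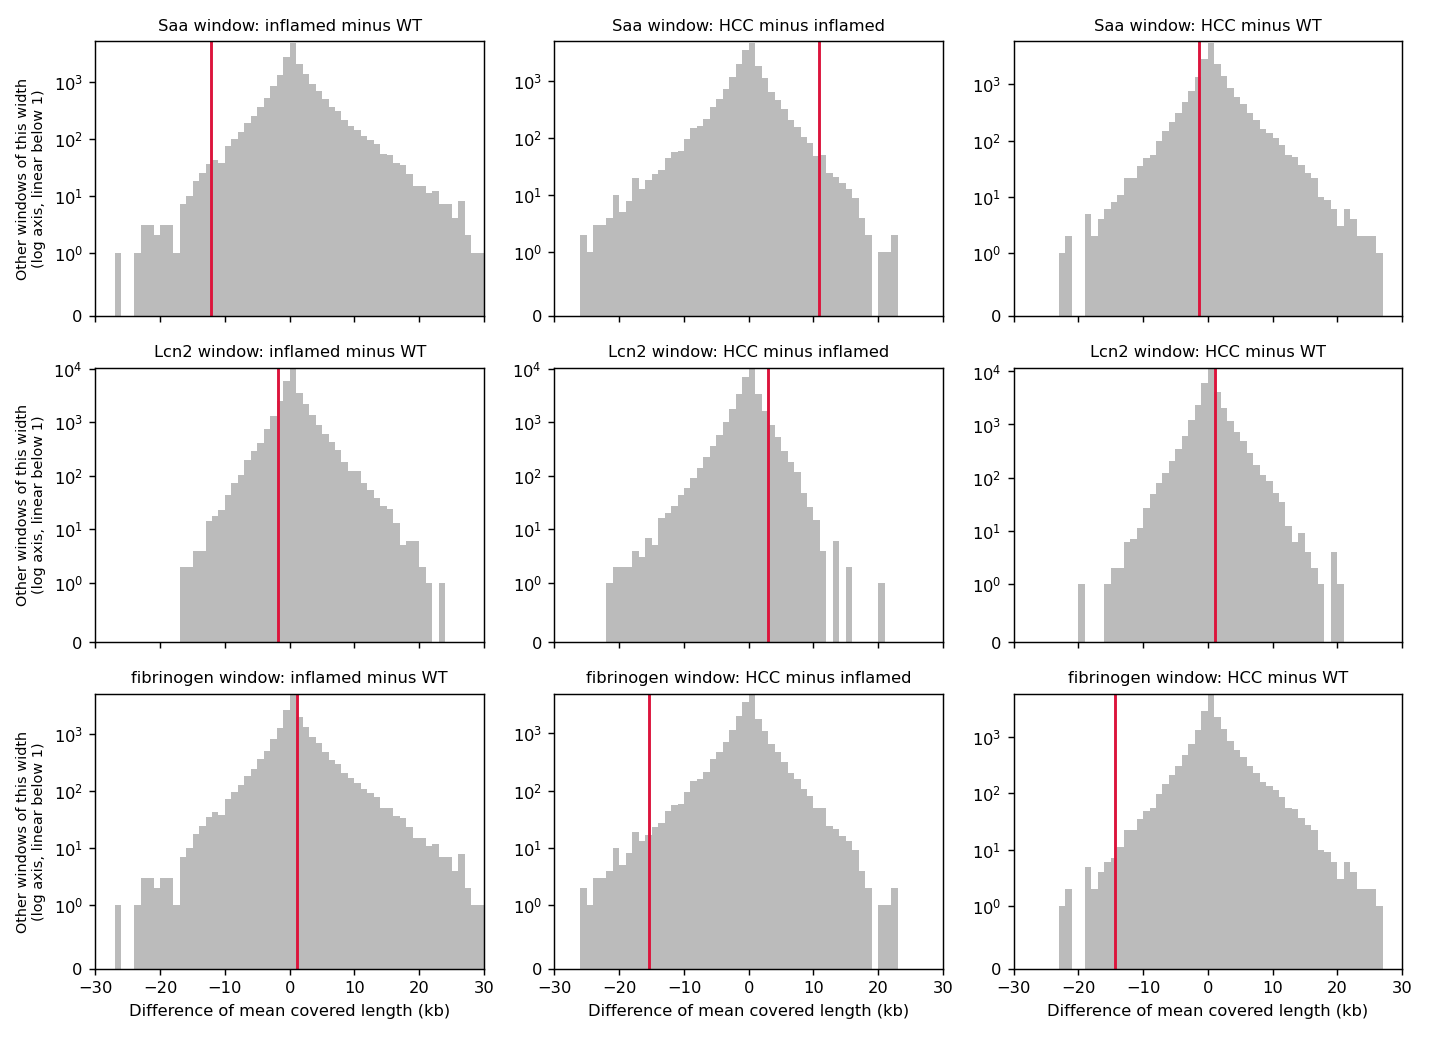
Differences of mean length under peaks between groups in kb (horizontal axis) for all other windows of the same width (grey bars, number of windows on a log axis that is linear below 1) and for the Saa, Lcn2 and fibrinogen windows (red lines) in the 3 comparisons. The Saa line lies in the lower tail for inflamed minus WT, and the fibrinogen lines lie in the lower tail for both comparisons with HCC.

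The 3 windows therefore differed in how they varied over the animals. As a description, the window elsewhere whose covered length followed that of Saa most closely over the 15 animals was chr3:138075001-138150000 (Pearson r = 0.92, n = 15), followed by chr11:120225001-120300000 (0.91) and chr14:52500001-52575000 (0.91). For Lcn2 they were chr11:51450001-51485000 (0.89), chr17:34055001-34090000 (0.86) and chr1:164395001-164430000 (0.85), and for fibrinogen chr4:53100001-53175000 (0.98), chr7:106275001-106350000 (0.95) and chr13:54150001-54225000 (0.95). These are the highest of 18691 windows of 75 kb and 31433 of 35 kb, and the points share the libraries, so that the 3 lists that stood apart enter each r.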

How the data were processed

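H3K27Ac ChIP-seq of 15 samples was used. The remaining sample, titled input of WT liver and grouped here as IgG, was not analysed. For every animal the authors ran a peak caller and deposited its peaks, each with coordinates and a score. The submitters' processing notes name Bowtie 0.12.7, MACS 1.4 and mm9; control, filters and the scale of the score are not given in the sources used here. Depth is unknown, and the number of animals limits precision.

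The windows, genes and lists were chosen with earlier results of these data known. Length under peaks was computed per animal, since the lists hold no read counts, and peaks overlapping by at least 1 bp counted as present. Differences between group means were tested by two-sided exact permutation, adjusted by Benjamini-Hochberg over the window and all non-overlapping windows of its width with a peak on chromosomes 1 to 19 and X, or over all merged regions; a call is an adjusted p under 0.05. Scores were ranked within an animal, ties share a percentile, and a region without a peak counts as 0. The tests were checked on simulated data with planted differences wider than a 75 kb window. That check does not show their power at differences of the size found here. All 8 genes are named with their window; coordinates are given for the longest region of each window and those differing most in number of animals. The other regions and stretches with coordinates were chosen after their values were seen, as were the stretches, the counts by base and the score percentiles. Alternatives were the best 50% of each list, equal lists of 26375 peaks, the number of peaks, the share of covered bp, windows extended by 10000 bp, leaving out each animal and leaving out WT 130748 with HCC 124711, and for presence a peak over at least 50% of a region and a peak in at least 4 of 5 against at most 1 of 5 animals. Wider acute phase and cell type lists, planned for an annotation of the files' build, were not computed. Promoters are RefSeq's (GRCm38.p6), of which only the bases before the start were used. Scripts ran in Python 3.11.15 with NumPy 2.4.6, and figures were drawn with matplotlib 3.10.9.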

Additional observations from a re-analysis of the deposited data

Results flagged for a closer look

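The sets of values examined were 27 (3 windows, 3 groups and 3 measures). In 8 of them 1 sample lay apart from the others of its group by Dixon's criterion. Chance meets that criterion in about 1 of 20 sets of continuous values. The rate does not apply to the 3 sets of peak counts, in which the other 4 animals were tied. Nor does it apply to the flagged sets of score percentiles. In those the other animals with a peak were all tied at a score of 3100, and their percentiles differed only with their lists. In the fibrinogen window WT animal 130748 had 29331 bp under peaks where the next lowest WT liver had 57096, it had 10 peaks where the others had 2, and its best score stood at percentile 99.9 where the next highest was 92.2. That score was 3211, just above the 3100 at which the others were tied, so that the gap in percentile spans the ties. In the Saa window the best score of the same animal stood at percentile 64.1, and the next lowest WT liver at 90.3. HCC animal 124711 had its best fibrinogen score at percentile 67.9, against 92.3 or more in the 3 other nodules with a peak. At Lcn2, inflamed animal 148990 and HCC animal 123390 had 2 peaks each where the others of their group had 3, and the best score of 148990 stood at percentile 84.3 where the next lowest inflamed liver was at 91.7. Their causes were not tested.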

How the results depend on the processing

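Differences below are in mean bp under peaks unless said otherwise, and causes were not tested. The lower value of inflamed livers at Saa kept its direction under every alternative; it was no longer called with the best 50% of each list (-8440 bp, exact permutation test, adjusted p = 0.163), with equal lists (-13943 bp, adjusted p = 0.0503) and by the number of peaks (-0.4). Leaving out 1 animal at a time gave -13925 to -9464 bp, with adjusted p from 0.0352 to 0.0821. Of the differences not called with all animals, HCC against WT at Saa turned positive with the best 50% (1647 bp), by peaks (0.2) and without WT 130748 and HCC 124711 (241 bp), and ranged from -5379 to 1921 bp with 1 animal left out. At Lcn2 inflamed against WT was 0.2 by peaks, HCC against inflamed 0 by peaks, and HCC against WT -540 bp with equal lists. At fibrinogen HCC against inflamed was 0 by peaks, and inflamed against WT turned negative with the best 50% (-3571 bp), by peaks (-0.2), as a share of covered length (-40.6 bp per Mb) and without WT 130748, alone or with HCC 124711 (-4482 bp, a call, exact permutation test, adjusted p = 0.0352); leaving out 1 animal gave -4482 to 2705 bp. The other 40 planned window settings and 81 with 1 animal left out kept direction and call. Without WT 130748, an alternative chosen after seeing the data, the score percentiles of the first Saa region and of the region right of Lcn2 became called. Those of the other 7 regions kept direction and call. With all animals no region of the genome was called on this measure (0.00%). For the region right of Lcn2 the exact permutation test gave p = 0.00794 in both settings, and only the adjustment over the genome changed. Both calls compare ranks in lists of different lengths. At the region right of Lcn2, WT 134501 shared the tied score of 3100 with all inflamed livers, so that its separation from them came from ties. The counts of merged regions present in all of one group and none of another were 0 in all 45 settings.

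No paired analysis was possible because the groups share no animal. Unknown depth limits statements on missing peaks.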
